A study of Mus musculus with 8 samples.

Results

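The glucocorticoid receptor gene Nr3c1 and 8 genes that are known to be controlled by the receptor or to set the supply of its hormone (Fkbp5, Tsc22d3, Zbtb16, Sgk1, Dusp1, Klf9, Klf15 and Hsd11b1) were followed through peak lists of 2 histone acetylation marks in mouse small intestinal crypts. The genes were chosen by name, with earlier results of these data known. All 9 were found in RefSeq's GRCm38 annotation, which gave 21887 genes that code for protein. For each gene the locus was the gene body with 50 kb on each side.

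CUT&Tag, in which an antibody guides a transposase to a chromatin mark, was run for H3K27ac and H3K9ac on epithelial cells of crypts from male C57BL/6J mice aged 9 weeks. The 4 groups of each mark were Fed without tetracycline, Fast without tetracycline, Fed with tetracycline and Fast with tetracycline; feeding or fasting lasted 24 h, and tetracycline, an antibiotic, was given for 21 days in the groups labelled +Tetra. Each group was 1 sample with 2 deposited peak lists, which makes 16 lists, 8 for each mark. No genetic change is named for any group, so the fed or fasted state and the antibiotic are the labelled differences. The deposited names call lists 1 and 2 of a sample rep1 and rep2, without saying what was repeated. Nothing says that they came from different mice, so each p-value below measures only the spread between lists, which may be technical.

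Glucocorticoids cross the cell membrane and bind the receptor, which is held by chaperones in the cytoplasm. The receptor then moves to the nucleus and binds DNA at paired copies of a short element, often at enhancers away from gene starts. Blood glucocorticoids are known to climb during fasting, and the intestinal epithelium expresses the receptor and can itself make and reactivate these hormones. Both marks, acetylation of histone H3 at lysine 27 and at lysine 9, are found at active promoters and enhancers.

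H3K27ac lists held 32392 to 68545 peaks and H3K9ac lists 17249 to 99050. The 4 Fed H3K27ac lists covered 33.1 to 56.0 Mb of the genome and the 4 Fast lists 48.2 to 64.2 Mb, so a larger covered share at a locus has to be read against a genome that was also covered more. Read depth is unknown. Peaks 200 bp wide, the narrowest kind, made up 17.2, 20.3 and 31.2% of 3 of the 4 Fast H3K9ac lists (list 1 without tetracycline and lists 1 and 2 with it) and 11.8% of H3K27ac Fast list 1 without tetracycline. All 10 epithelial marker genes were marked at a gene end in every H3K27ac list, beside 33.6% of all genes. In every H3K9ac list 7 of the 10 were, beside 21.1%. Of 10 stromal markers 8 were marked in no H3K27ac list and 5 in no H3K9ac list, the latter beside 25.2% of all genes. Of 10 immune markers 1 was marked in every H3K27ac list and 4 in none.

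The measure used first was locus cover, the percentage of a locus that lay under peaks. For H3K27ac, cover was higher on average in the Fast lists at all 9 loci, where 73.6% of all genes had a difference in that direction; divided by each list's covered share of the genome, the difference was -0.68 at Nr3c1 and -0.0022 at Klf9. The median difference over the 9 genes was 2.76 percentage points, beside 0.30 over all genes. The 9 loci also started from more cover. Median cover was 6.41% in Fed and 9.33% in Fast lists, beside 2.53 and 3.14% over all genes. In 3 of the 9 (Zbtb16, Fkbp5 and Dusp1) each of the 4 Fast lists lay above each of the 4 Fed lists, a pattern found for 5.29% of all genes. None of the 9 had all Fast lists below all Fed lists, which held for 0.128% of genes. For these genes the exact permutation test of the fed and fasted labels within tetracycline states gave p = 0.056. That is the smallest value its 36 arrangements allow, reached by 8.77% of all genes, so no gene could pass 0.05, and the Benjamini-Hochberg value over all genes was 0.63. After that division, or with as many top-scoring peaks taken from each list as the shortest list holds, Zbtb16 and Fkbp5 still had every Fast list above, 2 of 9 beside 3.34 and 3.5% of all genes, while 4.98 and 0.905% of genes then had every Fast list below. With flanks of 25 kb the count was 1, Zbtb16. Leaving out the lists numbered 1 or those numbered 2 gave 5 and 9 of 9.

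**Figure D1:**
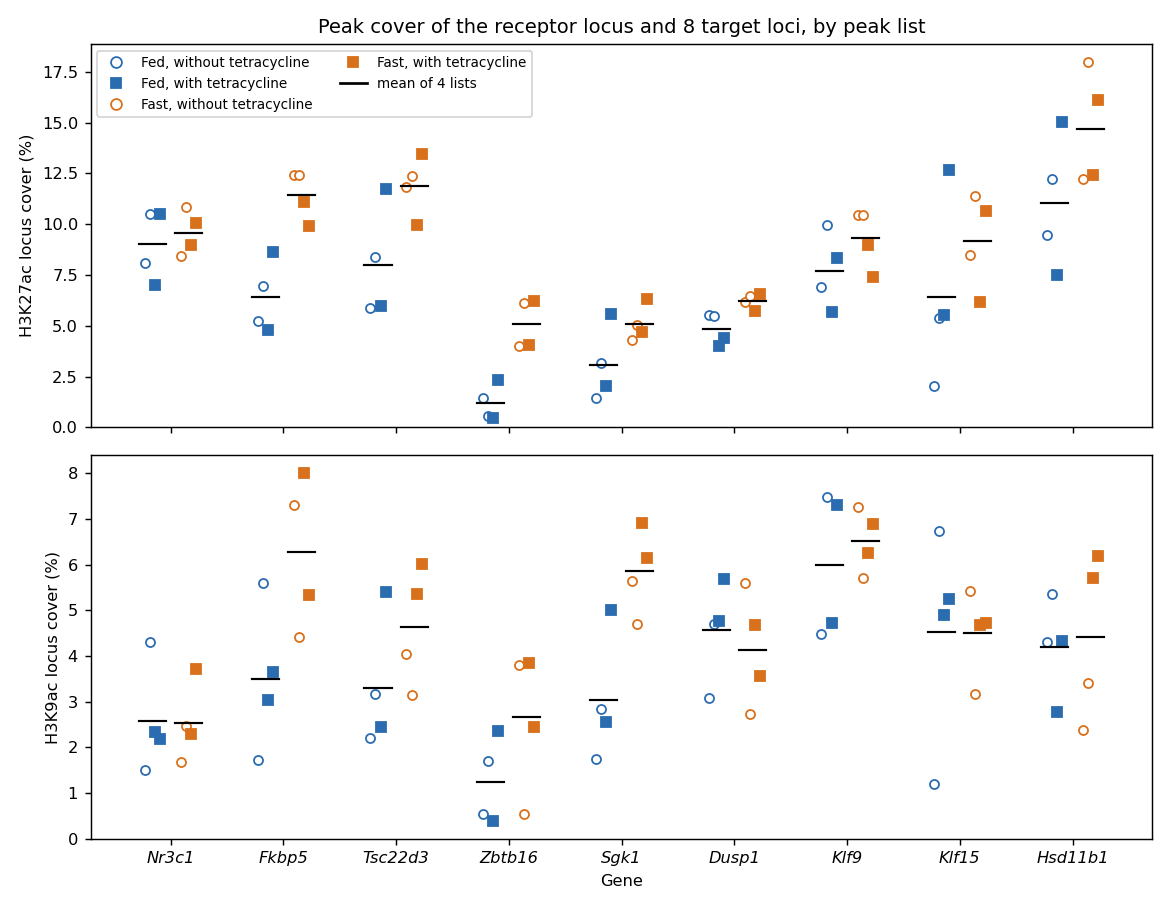
Locus cover by H3K27ac (upper panel) and H3K9ac (lower panel) peaks, in percent of the gene body plus 50 kb each side, for each of the 9 genes. Each symbol is 1 list, blue for Fed and orange for Fast, open circles without and filled squares with tetracycline, and the black bar is the mean of 4 lists; at Zbtb16, Fkbp5 and Dusp1 all orange symbols of the upper panel lie above all blue ones.

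The receptor gene Nr3c1 (gene ID 14815, chr18:39410545-39519421) carried a steady mark inside the gene rather than at its ends. Peaks that overlapped between the 8 lists of either mark were joined into merged regions. The region chr18:39488420-39492175, centred 29.1 kb below the upper end, had H3K27ac in all 8 lists, and the H3K9ac region chr18:39488393-39491936 over it was also in all 8. Peaks covered 3360, 3346, 3203 and 3402 bp of the H3K27ac region in Fed lists and 3547, 3426, 2897 and 3706 bp in Fast lists. The states overlapped there. No start site was available for Nr3c1, so whether this region lies at one is not known. The gene ends had H3K27ac in 1 of 4 Fed and 3 of 4 Fast lists and H3K9ac in none, where 25.2% of genes were without H3K9ac at their ends in all 8 lists. H3K27ac cover was 9.03% ± 1.78 in Fed and 9.57% ± 1.09 in Fast lists (SD, n = 4 lists each; exact permutation p = 0.72). H3K9ac cover was 2.59 and 2.54% (exact permutation p = 0.94). The receptor locus thus had the smallest H3K27ac difference of the 9, and that difference was -0.68 after division by the list's covered share of the genome.

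Hsd11b1 (gene ID 15483, chr1:193221640-193264045) encodes the enzyme that regenerates active glucocorticoid from its inert form. Its start-site window, from 250 bases before to 50 after the RefSeq transcript start, had no peak in any of the 16 lists, and its gene ends were marked in 1 H3K27ac and 2 H3K9ac lists. The body was free of H3K27ac in all 4 Fed lists. In the 4 Fast lists peaks covered 0.842 and 1.19 kb of it without tetracycline and 0.566 and 0.969 kb with it; 3.37% of all genes had body cover above in every Fast list. Most regions lay outside the gene: of its 28 H3K27ac regions 24 were in the flanks, and 5 of these were at the end of another gene. Locus cover, 11% ± 3.28 in Fed and 14.7% ± 2.83 in Fast lists (SD, n = 4 lists each; exact permutation p = 0.17), therefore includes the flanks, and which gene the flanking peaks act on is not known from these lists.

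Among the target genes, Zbtb16 (gene ID 235320, chr9:48651797-48836225), which encodes a zinc-finger transcriptional repressor also called PLZF, had the clearest separation in relative terms. Its H3K27ac cover was 1.42 and 0.556% in Fed lists 1 and 2 without tetracycline and 0.469 and 2.31% in those with it. In the Fast lists it was 3.99 and 6.10% without tetracycline and 4.06 and 6.22% with it. The lowest Fast list therefore lay above the highest Fed list in both tetracycline states together. The means were 1.19% ± 0.864 (SD, n = 4 lists) for Fed and 5.09% ± 1.23 for Fast, a ratio of 4.28 and a difference of 3.90 percentage points (exact permutation p = 0.056). Most of the difference lay inside the gene, where peaks covered 3.03 kb on average in Fed lists and 12.8 kb in Fast lists.

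Of the merged regions of the loci, 7 separated the feeding states by presence alone. Zbtb16 held 4 H3K27ac regions with a peak in every Fast list and in no Fed list. They were chr9:48737000-48738205, chr9:48744686-48747018 and chr9:48826083-48827312 in the gene body, and chr9:48835451-48836922 across the upper gene end. Tsc22d3 held 2 more (chrX:140544667-140545538 and chrX:140567345-140568599, both in the gene body) and Fkbp5 had 1, chr17:28495340-28496660, centred 9.85 kb beyond its start site. These 7 stood among 183 merged H3K27ac regions of the 9 loci, and 0.4% of all 112301 H3K27ac regions had this pattern. No region of the loci had a peak in every Fed and no Fast list, for which the share of all regions was 0.0837%. With each list reduced to its upper part by score (at or above its median) the 7 regions became 2 and the 4 of Zbtb16 became 0. With equal numbers of top-scoring peaks Zbtb16 had 2, and without the lists numbered 1 or those numbered 2 the 9 loci had 14. H3K9ac gave neither pattern in the 9 loci (0.0189 and 0.0145% of 295928 regions).

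The upper end of Zbtb16 was marked by H3K27ac in 4 of 4 Fast lists and 0 of 4 Fed lists, which held for 0.0959% of genes. H3K9ac was found there in 3 lists, all of them Fast: list 1 without tetracycline and lists 1 and 2 with it. A single H3K27ac region of the locus, chr9:48722911-48725143 in the gene body, was present in all 8 lists (14.6% of all H3K27ac and 1.52% of all H3K9ac regions were), and peaks covered 568 to 1371 bp of it in Fed lists and 1455 to 2233 bp in Fast lists. The overlapping H3K9ac region, chr9:48723044-48724437, went the other way. Its covered length was 723, 1394, 722 and 604 bp in the Fed lists and 0, 0, 511 and 0 bp in the Fast lists. As deposited, the 2 marks thus lay in opposite directions at this site. With equal numbers of top-scoring peaks H3K9ac covered 0 to 723 bp in Fed lists and 0 bp in all Fast lists, so the H3K9ac lists no longer separated, while the H3K27ac lists still did.

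Fkbp5 (gene ID 14229, chr17:28398753-28486149) encodes a co-chaperone that lowers the receptor's affinity for hormone and is itself a receptor target, which closes a feedback loop. H3K27ac covered 5.24 and 6.95% of its locus in Fed lists without tetracycline and 4.80 and 8.65% with it. The Fast lists gave 12.4 and 12.4% without tetracycline and 11.1 and 9.91% with it, all above every Fed list. The difference of means was 5.05 percentage points (6.41% ± 1.76 in Fed and 11.5% ± 1.21 in Fast, SD, n = 4 lists each; exact permutation p = 0.056).

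That difference lay upstream of the gene. The gene runs on the minus strand, so its start site is at the upper end, and the 50 kb beyond it carried 6.58 kb of H3K27ac peaks on average in Fed lists and 16.1 kb in Fast lists. The gene body carried 2.47 and 2.05 kb. A block of 14232 bp, chr17:28511399-28525630, centred 32.4 kb upstream of the start site and overlapping the long noncoding RNA gene E230001N04Rik, had peaks in all 8 H3K27ac lists. Peaks covered 4225 and 6909 bp of the block in Fed lists without tetracycline and 5178 and 8762 bp with it. In Fast lists they covered 13736 and 12235 bp without tetracycline and 11808 and 12061 bp with it. Every list held separate peaks in the block, and the states differed in the length covered. As deposited, H3K9ac also separated at its upper part (chr17:28520181-28524523), with 0, 840, 988 and 0 bp covered in Fed lists and 3461, 3676, 2479 and 2456 bp in Fast lists. With equal numbers of top-scoring peaks the Fed lists had 0 bp there and the Fast lists 0 to 3676 bp, so the lists no longer separated.

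**Figure D2:**
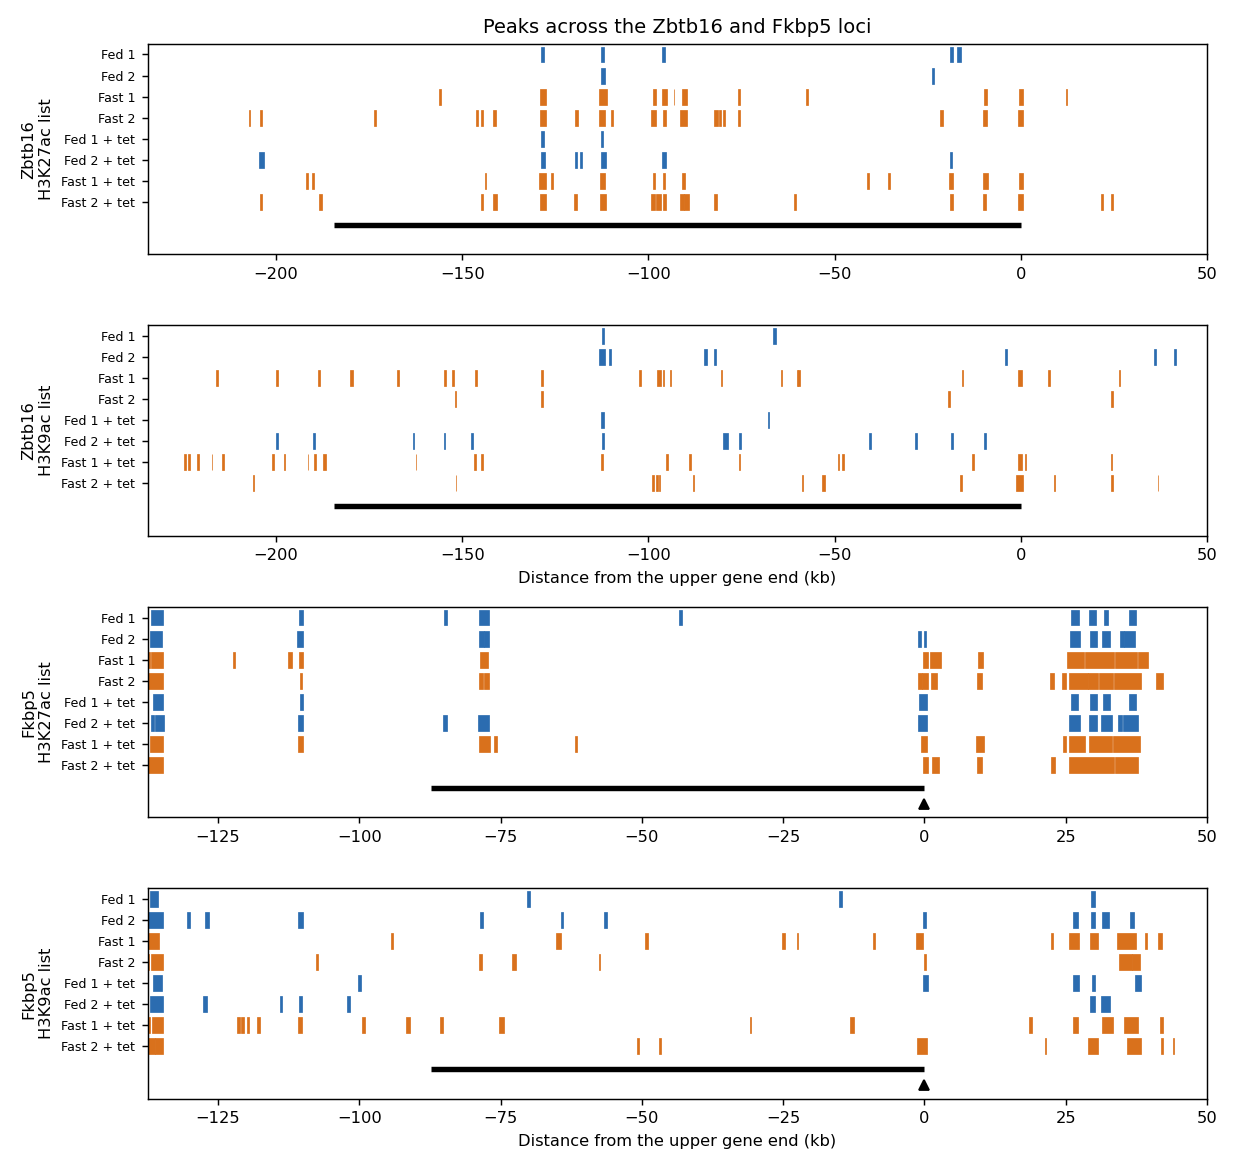
Peaks of every list across the Zbtb16 and Fkbp5 loci, drawn to scale by distance in kb from the upper gene end; 1 row is 1 list, blue Fed and orange Fast (+ tet: with tetracycline), the black bar is the gene body and the triangle the RefSeq start site of Fkbp5. Zbtb16 rows hold 2 to 7 H3K27ac peaks in Fed lists and 12 to 20 in Fast lists. The block centred 32.4 kb beyond Fkbp5 is covered over more of its length in the Fast H3K27ac rows than in the Fed ones.

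Covered length was also compared for regions that every list of a mark shared (8 of 8), a count added after the loci had been seen. Of 32 such H3K27ac regions in the 9 loci, 3 had more covered length in every Fast list than in any Fed list, and 0 had less, beside 5.04 and 0.494% of all such regions. They were the Fkbp5 block, the Zbtb16 region present in all lists and the region over Tsc22d3 start site 3. With equal numbers of top-scoring peaks the counts were again 3 and 0, beside 4.74 and 0.841%. For H3K9ac, 0 of 9 regions had more and 0 had less (2.15 and 1.06% of all such regions). With equal numbers the region over the Dusp1 start had less in every Fast list, 1 of 9 beside 2.9%, and 0 had more, beside 1.02%. Peaks then covered 2235 to 2488 bp of the Dusp1 region in Fed lists and 0 to 2231 bp in Fast lists. The closest pair was separated by very little.

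Marker genes of crypt cell types were read in the same lists. Summed over 5 stem cell markers, none of which had an H3K27ac peak at a gene end in all 8 lists, H3K27ac cover was 5.20 to 13.1 percentage points in Fed lists and 17.2 to 29.0 in Fast lists. Summed over 5 Paneth cell markers it was 2.83 to 5.98 in Fed lists and 9.82 to 13.8 in Fast lists, with 2 of the 5 unmarked at their ends in every list. Taken singly, 2 of these 5 were above in every Fast list, beside 5.29% of all genes. They were Mmp7 (means 0.097 and 4.30%) and Defa24 (0 and 1.67%), and the rest overlapped. The summed cover of the 10 immune markers overlapped between the states, at 29.6 to 58.3 percentage points in Fed and 48.3 to 64.2 in Fast lists. At their ends, 4 of them were unmarked in every H3K27ac list and 1, Cd79a, was marked in all 8. Ptprc, 1 of the 10, had H3K27ac at a gene end in 4 of 4 Fast and 0 of 4 Fed lists. That is the pattern of Zbtb16, found for 0.0959% of all genes, and 0 of the 10 had the reverse. Cd3e leaned the other way, with its end marked in 4 of 4 Fed and 2 of 4 Fast lists. Cover at Ptprc and at Cd3e overlapped between the states. The part of these markers in the Zbtb16 and Fkbp5 values was not tested. In bulk samples, fewer cells of a type and less acetylation per cell cannot be told apart.

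Start sites were examined through the RefSeq promoter windows for GRCm38.p6, which run from 250 bases before to 50 after a transcript start. They matched 7 of the 9 genes, all but Nr3c1 and Zbtb16, and gave 14 windows. The sequences below are shown because the peaks picked out particular start sites of Sgk1 and Tsc22d3, and because the Dusp1 window holds the cyclic AMP element and the Fkbp5 window belongs to a gene whose fasting difference lay upstream of it. Each is the 250 bases before a start site, 5′ to 3′ on the gene's strand, in lower case. Capitals mark matches on either strand to the full response element (G, any base, ACA, any 3 bases, TGT, any base, C), to AGAACA (a single arm of it, which can overlap the full element), to the cyclic AMP element TGACGTCA, to the Sp1-type GC box GGGCGG or to the TATA box TATAAA.
Sgk1 start site 5, chr10:21993640-21993889, + strand: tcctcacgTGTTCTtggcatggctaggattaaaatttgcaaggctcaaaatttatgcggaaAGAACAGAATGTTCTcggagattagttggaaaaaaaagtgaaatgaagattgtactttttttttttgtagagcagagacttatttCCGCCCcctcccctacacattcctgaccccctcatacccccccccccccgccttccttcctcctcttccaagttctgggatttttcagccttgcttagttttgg
Sgk1 start site 6, chr10:21994416-21994665, + strand: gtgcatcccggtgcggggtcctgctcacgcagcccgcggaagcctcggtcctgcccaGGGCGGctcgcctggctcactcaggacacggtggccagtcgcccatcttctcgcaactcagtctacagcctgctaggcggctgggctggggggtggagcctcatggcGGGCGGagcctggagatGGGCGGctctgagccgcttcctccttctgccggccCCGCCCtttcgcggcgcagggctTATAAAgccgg
Tsc22d3 start site 3, chrX:140542669-140542918, - strand: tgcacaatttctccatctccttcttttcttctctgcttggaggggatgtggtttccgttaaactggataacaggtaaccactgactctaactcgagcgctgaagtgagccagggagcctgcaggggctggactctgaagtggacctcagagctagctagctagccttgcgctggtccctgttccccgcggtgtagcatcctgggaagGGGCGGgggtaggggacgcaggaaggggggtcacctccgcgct
Tsc22d3 start site 1, chrX:140600523-140600772, - strand: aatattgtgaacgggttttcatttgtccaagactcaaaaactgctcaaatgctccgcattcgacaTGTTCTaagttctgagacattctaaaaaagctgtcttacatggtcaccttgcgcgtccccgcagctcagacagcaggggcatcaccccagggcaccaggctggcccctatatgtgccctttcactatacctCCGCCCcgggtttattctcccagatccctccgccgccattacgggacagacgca
Dusp1, chr17:26508473-26508722, - strand: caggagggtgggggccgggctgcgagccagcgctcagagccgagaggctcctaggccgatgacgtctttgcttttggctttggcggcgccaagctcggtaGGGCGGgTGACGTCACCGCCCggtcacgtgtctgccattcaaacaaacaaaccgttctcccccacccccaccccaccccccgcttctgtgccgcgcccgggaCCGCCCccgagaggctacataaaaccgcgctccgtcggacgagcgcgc
Fkbp5, chr17:28486150-28486399, - strand: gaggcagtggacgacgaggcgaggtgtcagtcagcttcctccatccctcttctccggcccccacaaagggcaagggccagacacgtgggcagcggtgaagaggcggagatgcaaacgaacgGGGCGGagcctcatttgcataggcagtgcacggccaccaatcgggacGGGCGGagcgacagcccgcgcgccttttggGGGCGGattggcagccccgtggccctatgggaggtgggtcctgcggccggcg

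The full element matched in 1 of the 14 windows, that of Sgk1 start site 5, at chr10:21993702-21993714, 188 to 176 bases before the start. It matched in 127 of 32851 windows of this length over all genes (0.387%). A single arm alone also matched at Sgk1 start sites 1 and 4 and Tsc22d3 start site 1, where 16.1% of all windows held a match. The cyclic AMP element matched at Dusp1 (1.55% of windows) and lay between GC boxes there, and the GC box was the most frequent match, in 32.7% of all windows. The TATA box, in 12.4% of windows, matched at Sgk1 start sites 4 and 6. Klf9 and Hsd11b1 had none of the 5 motifs in these 250 bases. A match is a description of letters and not evidence of binding.

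Sgk1 (gene ID 20393, chr10:21882184-21999903), a kinase that raises epithelial sodium transport, has 6 start sites in the table, numbered from the 5′ end. Sites 1, 2 and 3 had no H3K27ac peak in any list and 1 H3K9ac peak among them, at site 2. Site 4 had H3K27ac in 6 and H3K9ac in 7 of 8 lists, site 5 in 8 and 7, and site 6 in 8 and 8. The marked starts, including the window with the full element printed above, are those nearest the 3′ end of the gene. The H3K27ac region over sites 4, 5 and 6, chr10:21991165-21995389, was present in all 8 lists, and the H3K9ac region there, chr10:21991121-22002522, was 11402 bp wide and also in all 8.

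Locus cover at Sgk1 was the largest H3K9ac difference of the 9 genes. The Fed lists gave 1.75 and 2.83% without tetracycline and 2.56 and 5.01% with it, and the Fast lists 5.65 and 4.71% without and 6.91 and 6.14% with it. The Fast lists were above the Fed lists within each tetracycline state, but Fed list 2 with tetracycline lay above Fast list 2 without it. The means were 3.04% ± 1.39 and 5.85% ± 0.924 (SD, n = 4 lists each; exact permutation p = 0.056, the smallest possible and reached by 5.81% of all genes, Benjamini-Hochberg value over all genes 0.87). For H3K27ac the means were 3.07 and 5.08% (exact permutation p = 0.11). Both marks separated completely in the 50 kb beyond the 3′ end: H3K27ac peaks covered 0 to 3.12 kb in Fed lists and 3.16 to 4.76 kb in Fast lists, and H3K9ac peaks 0 to 2.04 and 2.06 to 3.93 kb. The gaps between the closest lists were small. Over all genes, 3.93% had such a separation for H3K27ac and 2.43% for H3K9ac in the flank beyond the upper coordinate, whatever the strand. Of the 9 genes, 4 separated in that flank for H3K27ac (Sgk1, Dusp1, Fkbp5 and Zbtb16) and 1 for H3K9ac (Sgk1). In the lower flank 0 had every Fast list above in either mark.

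Tsc22d3 (gene ID 14605, chrX:140539528-140600522) encodes GILZ, a leucine-zipper protein known for anti-inflammatory effects of glucocorticoids. Of its 3 start sites, the windows of the 2 upstream ones had no peak of either mark in any list. The window of site 3, the most downstream, had a peak of both marks in all 8. Within 1 kb of the upper gene end, where site 1 lies, H3K27ac was found in 4 and H3K9ac in 6 of 8 lists. An H3K9ac region in the gene, chrX:140597431-140599978, reached into that 1 kb and had 491 to 1894 bp covered in all 8 lists. The H3K27ac region over site 3, chrX:140536542-140544025, was covered over 4615, 5517, 3456 and 5924 bp in the Fed lists and 5991, 6874, 5942 and 7076 bp in the Fast lists. Every Fast list was above every Fed list, the closest pair by very little.

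H3K27ac covered 5.90 and 8.38% of the Tsc22d3 locus in Fed lists without tetracycline and 5.98 and 11.7% with it, and 11.8 and 12.4% (without) and 9.94 and 13.4% (with) in Fast lists. The states overlapped only through Fed list 2 with tetracycline, which lay above Fast list 1 of the same treatment (difference of means 3.90 percentage points, exact permutation p = 0.11). H3K9ac cover was 3.31% ± 1.46 in Fed and 4.64% ± 1.29 in Fast lists (SD, n = 4 lists each; exact permutation p = 0.22).

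**Figure D3:**
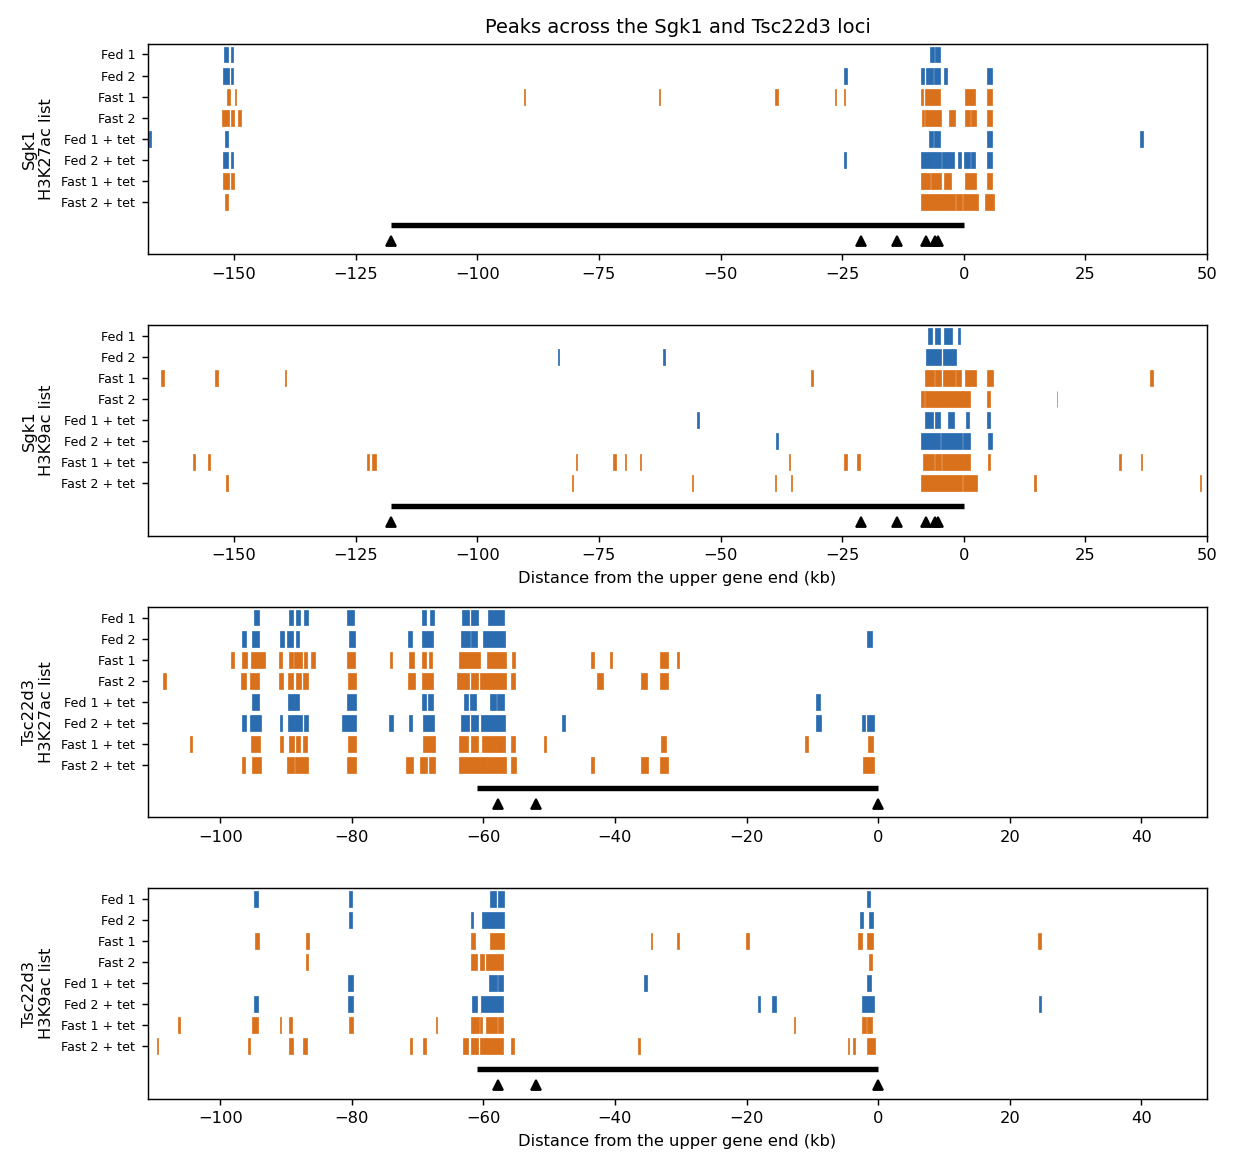
Peaks of every list across the Sgk1 and Tsc22d3 loci, drawn to scale by distance in kb from the upper gene end; 1 row is 1 list, blue Fed and orange Fast (+ tet: with tetracycline), the black bar is the gene body and triangles are RefSeq start sites. The peaks gather over Sgk1 start sites 4, 5 and 6, the triangles on the right, and over Tsc22d3 start site 3, the triangle on the left. The windows of the other start sites are without H3K27ac, though some lists have a peak within 1 kb of Tsc22d3 start site 1.

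Dusp1 (gene ID 19252, chr17:26505591-26508472) encodes a phosphatase that switches off stress-activated kinases. Its start site, the window with the cyclic AMP element, had a peak of both marks in all 8 lists, and the region over it was chr17:26507050-26509765 for H3K27ac and chr17:26506578-26509695 for H3K9ac. Locus cover by H3K27ac was 5.51 and 5.49% in Fed lists without tetracycline and 3.99 and 4.38% with it, against 6.18 and 6.46% and 5.73 and 6.54% in Fast lists. The lists did not overlap, but the lowest Fast and the highest Fed list were close, and the difference was 1.38 percentage points (4.85% ± 0.775 and 6.23% ± 0.364, SD, n = 4 lists each). Cover in the 50 kb beyond the start, 4.03 kb in Fed and 5.25 kb in Fast lists, made up most of it. H3K9ac differed little and in the opposite direction (4.56 and 4.14%, exact permutation p = 0.61).

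Klf9 (gene ID 16601, chr19:23141226-23168129) and Klf15 (gene ID 66277, chr6:90461043-90491803) encode Krüppel-like transcription factors; Klf15 is known for its part in amino acid breakdown and glucose production during fasting. The Klf9 start was marked by H3K27ac in all 8 lists and by H3K9ac in 7, with regions chr19:23139512-23144596 and chr19:23139778-23144594 across it. A further region 6.24 kb below the start (centre), chr19:23132160-23137806, over the long noncoding RNA gene 2410080I02Rik, was present in all 8 H3K27ac lists, and H3K9ac overlapped it in all 8. H3K27ac cover was 5.67 to 9.94% in Fed lists and 7.40 to 10.5% in Fast lists (exact permutation p = 0.22), so the states overlapped broadly.

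At Klf15 the start site had H3K27ac in 6 and H3K9ac in 3 of 8 lists, and the steadier mark was at the other end of the gene, where chr6:90491528-90493120 had H3K27ac in all 8. In percentage points its H3K27ac cover had the widest spread between lists of the 9 genes, though relative to its mean Zbtb16 varied more. Fed lists gave 2.03 and 5.39% without tetracycline and 5.52 and 12.7% with it, and Fast lists 8.48 and 11.4% without and 6.16 and 10.7% with it. The Fast mean exceeded the Fed mean by 6.21 percentage points without tetracycline and was 0.70 below it with tetracycline. The 2 lists of the Fed group with tetracycline differed from each other by more than that second value, and the difference between the treatments was not tested.

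Across the gene ends as a whole, H3K27ac was present within 1 kb of an end in all 8 lists at Dusp1, Klf9, Klf15 and Tsc22d3, 4 of 9 genes beside 33.6% of all genes. It was present in 7 lists at Fkbp5, 5 at Sgk1 (1 Fed and 4 Fast), 4 at Nr3c1 and 4 at Zbtb16, and 1 at Hsd11b1. H3K9ac was present in all 8 lists at Dusp1 and Klf9, 2 of 9 beside 21.1% of all genes. In the remaining genes it was found in 7 lists at Sgk1, 6 at Tsc22d3, 5 each at Klf15 and Fkbp5, 3 at Zbtb16, 2 at Hsd11b1 and 0 at Nr3c1. Of the 3 genes without overlap between Fed and Fast H3K27ac cover, Dusp1 was also marked at an end in all 8 lists.

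**Figure D4:**
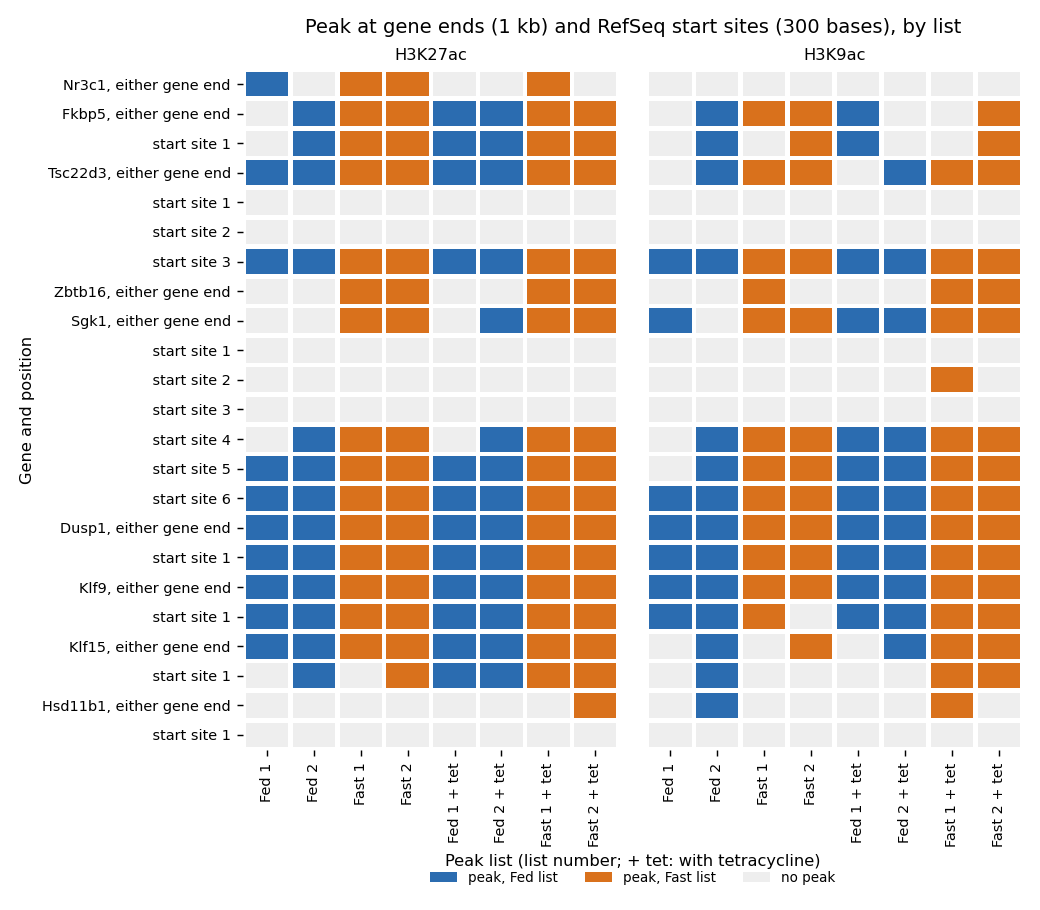
Presence of a peak within 1 kb of either gene end, and in the RefSeq promoter windows of 300 bases, for each of 16 lists (columns, H3K27ac left and H3K9ac right; + tet: with tetracycline). Filled cells are lists with a peak, blue for Fed and orange for Fast, and grey cells lists without; the Zbtb16 row is filled only in orange, and Tsc22d3 start sites 1 and 2 and Sgk1 start sites 1 and 3 are grey throughout.

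For H3K9ac no gene of the 9 separated by feeding in locus cover (3.48% of all genes had every Fast list above and 0.251% every Fast list below). With equal numbers of top-scoring peaks those shares were 0.512 and 6.02%, so more genes then separated downwards than upwards, and the count for the 9 genes was still 0. After division by the covered share of the genome they were 2.35 and 4.6%, with Fkbp5 above and Dusp1 below. Cover was higher on average in Fast lists at 6 of 9 loci, beside 74% of all genes, and the median difference was 0.52 percentage points beside 0.35 over all genes. Median Fed cover was 3.50% for the 9 genes and 1.95% over all genes. Hsd11b1 had both Fast lists below both Fed lists without tetracycline (3.24% of all genes) and both above with it (25%). Apart from Sgk1, Fkbp5 had the largest value, 2.77 points, with 1.73, 5.60, 3.03 and 3.64% in Fed lists and 7.31, 4.42, 8.01 and 5.34% in Fast lists (exact permutation p = 0.11). Fed list 2 without tetracycline lay among the Fast lists. Zbtb16 had 0.542, 1.71, 0.383 and 2.36% in Fed lists and 3.80, 0.545, 3.84 and 2.45% in Fast lists (exact permutation p = 0.17). The lists with many narrow peaks named above are among the higher values here. With only peaks at least 500 bp wide, chosen after seeing the data, the H3K9ac fasting difference changed direction at Hsd11b1 alone of the 9. The part of the narrow peaks in the result was not tested otherwise.

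Tetracycline was compared within each feeding state by the same exact permutation test. No gene of the 9 had all 4 lists with tetracycline on the same side of all 4 without it. For H3K27ac 0.128% of all genes had every list with tetracycline above and 1.22% below, and for H3K9ac 0.238 and 0.142%. The smallest p among the 9 was 0.11 in either mark. It belonged to Klf9 in H3K27ac (9.44% without and 7.59% with tetracycline) and to Tsc22d3 (3.14 and 4.81%) and Sgk1 (3.73 and 5.16%) in H3K9ac. At Zbtb16 and Fkbp5, the genes with the widest fasting separation, the H3K27ac differences were 0.25 and -0.65 points (exact permutation p = 0.72 and 0.56), and fasting differences were 4.06 and 6.33 points without tetracycline and 3.75 and 3.77 points with it. A single region separated by treatment, an H3K9ac region in the Hsd11b1 locus at the end of G0s2 (chr1:193272269-193273828) with a peak in all 4 lists with tetracycline and none without, a pattern of 0.0189% of all H3K9ac regions. G0s2, an inhibitor of fat breakdown, is a neighbour and not one of the 9 genes.

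Other genes of the pathway were taken from 3 lists, which were chosen with earlier results of these data known. Among 16 receptor cofactors and chaperones, 13 had H3K27ac at a gene end in all 8 lists, beside 33.6% of all genes. Cover was above in every Fast list at 1 of the 16, a share near the 5.29% of all genes: Fkbp4, a co-chaperone that counteracts Fkbp5, with 3.71 to 5.20% in Fed and 5.58 to 7.55% in Fast lists. Among 11 genes of steroid synthesis and metabolism it was also 1, Hsd11b2, which inactivates glucocorticoid and so opposes Hsd11b1, with 5.85 to 11.6% in Fed and 13.1 to 18.2% in Fast lists. H6pd, which supplies the cofactor of the Hsd11b1 enzyme, had means of 7.63 and 11.3% (exact permutation p = 0.22). Nr5a2, a regulator of intestinal steroid synthesis, had 3.49 and 5.90% (exact permutation p = 0.22). Nr3c2, the mineralocorticoid receptor, had 3.64 and 3.90% (exact permutation p = 0.67). Of the 11 genes, 5 were marked at an end in all 8 H3K27ac lists, beside 33.6% of all genes. H6pd, Nr5a2, Nr3c2 and Hsd11b2 were among them. Another 5 were marked in none, among them the synthesis enzymes Cyp11a1, Cyp11b1 and Hsd3b2.

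Because the third list was chosen with earlier results of these data known, its counts describe the peak lists as deposited and test nothing. Of 32 other genes known to respond to glucocorticoids, 7 had H3K27ac cover above in every Fast list and 0 below, beside 5.29 and 0.128% of all genes, and the list's median difference was 1.11 points. They were Ddit4, an inhibitor of growth signalling (13.7% in Fed and 29.1% in Fast lists), Pdk4, which restrains glucose oxidation (2.79 and 5.91%), Glul, glutamine synthetase (1.45 and 4.23%), the transcription factor Cebpd (3.45 and 5.40%), the sodium channel subunit Scnn1b (listed at 0 in all Fed lists, up to 0.624% in Fast lists) and the metallothioneins Mt1 and Mt2. Mt1 and Mt2 are neighbours that share nearly the whole locus (7.28 and 14.2% for Mt1), so they count as a single observation. For H3K9ac, Cebpd (3.90 and 5.43%) and Rgs2, a regulator of G-protein signalling (0.548 and 1.79%), were above in every Fast list, 2 of 32 beside 3.48% of all genes. Anxa1 and Cdkn1a, and Abcb1a of the steroid list, had no peak at a gene end in any of the 16 lists. Of all genes, 25.2% were unmarked at their ends in all 8 H3K9ac lists. The Cdkn1a locus still had H3K27ac cover of 5.11 to 12.3% in Fed and 8.89 to 14.5% in Fast lists. Its start sites were not examined. Each gene that separated was at the smallest p of the test, 0.056 in the exact permutation test, and none passed 0.05.

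Likeness of pattern was measured for Nr3c1 and Fkbp5 as Pearson's r over the 16 lists of log2(percent covered + 0.1), less the mean of the list over all genes. Since the points are lists of both marks, a large part of any r is the difference between marks. Nr3c1 was most like Mapk1ip1l, Ptk2 and Pik3c2a (r = 0.98 each). Fkbp5 was most like Mcph1, Adgrf3 and Pawr (r = 0.94 each).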

How the data were processed

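CUT&Tag peak lists of 8 mouse samples, 2 lists each, were the sole data. The authors deposited, per peak, its chromosome and positions, a MACS peak name and a score of no stated unit; the score was used only to rank peaks within a list. The submitters' processing notes name FastQC, Bowtie, SAMtools and the build mm10 (GRCm38). The deposited names say that the data were downsampled. The MACS version, its cutoff, the use of IgG libraries and read totals are not given in the sources used here, so depth is unknown.

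Peaks on chromosomes 1 to 19, X and Y and genes of the RefSeq table for GRCm38.p6 were used; strand came only from the promoter windows. Locus cover, gene ends (1 kb), covered length and merged regions (overlap of at least 1 bp) were computed with Python 3.11.15, numpy 2.4.6 and pandas 2.3.3. Fasting was tested by two-sided exact permutation over lists within tetracycline states, and tetracycline within feeding states (36 arrangements, smallest p 0.056), with Benjamini-Hochberg adjustment over 21887 genes. Regions over which all lists of a state lay above the other state's are counts beside the share of all genes or regions. The code was checked on simulated cover. The 9 genes, the pathway and marker lists and the motifs were chosen with earlier results of these data known. The 9 genes were all named. From the lists, genes without overlap between Fed and Fast cover and genes unmarked at their ends in all 16 lists were named. Hsd11b2, H6pd, Nr3c2 and Nr5a2 were named as well. Ptprc, Cd3e, Cd79a, Cyp11a1, Cyp11b1 and Hsd3b2 were named for their gene ends after the data were seen. Regions were named when in all 8 lists of a mark at a gene end, confined to all lists of a state, or the widest in all 8 lists of a locus; regions compared by covered length were added after the data were seen. Alternatives were the same number of top-scoring peaks per list, the upper part of each list by score (at or above its median), leaving out a list number, 25 kb flanks, scaling to the covered share of the genome, a 2.5 kb window, an overlap of 0.5 of the shorter peak and a replicate block; peaks at least 500 bp wide were added after the data were seen. A motif search in the peak regions was not run.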

Additional observations from a re-analysis of the deposited data

Results flagged for a closer look

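At Hsd11b1 the fasting difference in H3K9ac locus cover went in opposite directions in the 2 treatments. Without tetracycline the Fed lists gave 4.30 and 5.35% and the Fast lists 2.37 and 3.41%, a difference of -1.93 percentage points. With tetracycline the Fed lists gave 2.79 and 4.33% and the Fast lists 5.71 and 6.18%, a difference of 2.39 points. The differences are 4.32 points apart, and each Fast list lay on the same side of both Fed lists of its treatment. H3K9ac peaks covered 0 to 0.726 kb of the gene body, so most of this cover lay in the flanks. Upper flank cover was 2.53 and 4.17 kb in Fed and 0.472 and 1.99 kb in Fast lists without tetracycline. With it the values were 1.41 and 4.21 kb and 5.16 and 3.52 kb, which overlapped. The 2 Fast lists with tetracycline had 20.3 and 31.2% of their peaks 200 bp wide. The difference between the treatments was not tested. Of all genes, 3.24% had both Fast lists below both Fed lists without tetracycline, and 25% had both above with it.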

How the results depend on the processing

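Fast minus Fed H3K27ac cover kept its direction at 7 of 9 genes (all but Nr3c1 and Klf9) in every setting that kept both lists of a sample, and H3K9ac cover at 4 of 9; for tetracycline it was 5 and 3 of 9. No setting could bring a p below 0.05, and the cause of the changes was not tested. The values that turned were these, in percentage points. With an equal number of top-scoring peaks per list, fasting gave -1.27 at Nr3c1 in H3K27ac and, in H3K9ac, -0.47 at Tsc22d3, -0.21 at Zbtb16, -1.89 at Klf9 and -0.66 at Hsd11b1. Tetracycline gave 0.26 at Nr3c1, 0.12 at Fkbp5 and 1.49 at Hsd11b1 in H3K27ac, and -0.33 at Nr3c1, -0.39 at Fkbp5, -0.77 at Dusp1 and -0.67 at Hsd11b1 in H3K9ac. With the upper part of each list by score, fasting gave -0.014 at Nr3c1 in H3K27ac, and -1.08 at Klf9 and 0.0029 at Klf15 in H3K9ac; tetracycline gave 0.24 at Fkbp5 in H3K27ac, and -0.11 at Nr3c1, -0.13 at Fkbp5, -0.046 at Zbtb16 and -1.28 at Dusp1 in H3K9ac. With 25 kb flanks, fasting gave 0.69 at Klf15 and -0.30 at Hsd11b1 in H3K9ac, and tetracycline 0.17 at Dusp1 in H3K27ac, and -0.14 at Fkbp5 and -0.096 at Klf9 in H3K9ac. Divided by the covered share of the genome (a ratio to that share), fasting gave -0.68 at Nr3c1 and -0.0022 at Klf9 in H3K27ac, and -1.06 at Klf9 and -0.97 at Hsd11b1 in H3K9ac; tetracycline gave 0.30 at Nr3c1, 0.17 at Fkbp5 and 0.55 at Hsd11b1 in H3K27ac, and -0.38 at Klf9 and -0.034 at Hsd11b1 in H3K9ac. With peaks at least 500 bp wide, chosen after seeing the data, fasting gave -0.41 at Hsd11b1 and tetracycline -0.18 at Nr3c1, both in H3K9ac.

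Counts moved as follows. Genes with H3K27ac cover above in every Fast list fell from 3 to 1 with 25 kb flanks. For H3K9ac, scaling gave 1 gene above (Fkbp5) and 1 below (Dusp1), from 0 and 0. Genes marked at an end in all lists went from 4 to 2 for H3K27ac with the upper part by score, and for H3K9ac from 2 to 0 with it, to 0 with equal numbers and to 4 with a 2.5 kb window. Genes marked at an end in every Fast and no Fed H3K27ac list went from 1 to 2 with equal numbers. The 7 H3K27ac regions in every Fast and no Fed list became 2 with the upper part by score, and the 4 of Zbtb16 became 0 with it and 2 with equal numbers. With equal numbers 1 H3K9ac region was in every Fed and no Fast list, from 0.

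Leaving out the lists of number 1 or of number 2 leaves 1 list per group, and counts without overlap then come more easily. Genes with cover above in every Fast list were 5 to 9 for H3K27ac and 0 to 5 for H3K9ac, those below 0 to 3 for H3K9ac, and those marked at an end in every Fast and no Fed list 1 to 2 and 0 to 2. Genes marked at an end in every H3K9ac list were 3 to 4. Regions in every Fast and no Fed list were 14 in both cases for H3K27ac and 6 in both for H3K9ac, those of Zbtb16 4 to 7 and 2 in both, and regions in every Fed and no Fast list 0 to 1 and 1 to 7. Fasting differences that turned ranged from -0.075 to 1.15 (Nr3c1) and -0.19 to 3.44 (Klf9) in H3K27ac. In H3K9ac they ranged from -0.16 to 0.062 (Nr3c1), -0.54 to 3.36 (Zbtb16), -2.05 to 1.21 (Dusp1), -1.10 to 2.14 (Klf9), -2.06 to 2.0 (Klf15) and -0.046 to 0.50 (Hsd11b1). Tetracycline differences ranged from -0.92 to 2.21 (Tsc22d3), -0.44 to 0.94 (Zbtb16) and -0.89 to 0.46 (Hsd11b1) in H3K27ac. In H3K9ac they ranged from -0.44 to 0.72 (Nr3c1), -0.52 to 1.0 (Fkbp5), -0.063 to 1.28 (Zbtb16) and -0.38 to 0.49 (Klf9).

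The labels do not say that list numbers mark a pairing. Deviations of same-numbered lists correlated between groups at 0.054 to 0.249 for H3K27ac (5 of 6 pairs of groups above 0.1) and -0.116 to 0.244 for H3K9ac; since not every pair was above 0.1, the numbers were not used as pairs. With the replicate block the differences are the same (3.90 points at Zbtb16 and 5.05 at Fkbp5 in H3K27ac), and the smallest p its 16 sign flips allow is 0.125 in an exact permutation test.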
